A study of Arabidopsis thaliana with 4 samples.

Results

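Nuclear genes of the plant Arabidopsis thaliana encode the sigma factors of the plastid RNA polymerase and the phage-type RNA polymerases of the organelles, and their transcript levels were compared between 2 lines of Col-0, the reference accession. The 9 genes were taken by gene identifier, not by a cutoff on measured values, but were chosen with earlier results of these data known. They are the sigma factor genes SIG1 to SIG6 (6 genes) and the polymerase genes RPOTp, RPOTmp and RPOTm (3 genes). Each matched 1 annotated gene model, so 9 of the 31842 annotated models of the nuclear chromosomes are described, and no model without an annotated transcript carried any of the 9 names. RNA came from whole seedlings aged 2 weeks, soil-grown at 22 °C under long days, and both lines are labelled as wild type. By their labels 1 line is SALK Col-0 and the other is Another Col-0, and each is represented by 2 biological replicates. The labels give no generation number and no seed history for either line, and nothing in them says whether the replicates were separate sowings, so p-values measure the spread between these libraries.

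Chloroplast DNA is read by RNA polymerases of unlike descent. The plastid-encoded polymerase has a core like that of bacteria, encoded in the chloroplast genome, and needs a sigma factor from the nucleus to recognise a promoter. The nuclear-encoded polymerases are single proteins related to those of bacteriophages: RPOTp acts in plastids, RPOTm in mitochondria and RPOTmp in both. In leaves the plastid-encoded enzyme transcribes the photosynthesis genes, and the sigma factors divide that work among them and tie it to light, stress and development.

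Levels are given as FPKM (fragments relative to transcript length and to all mapped fragments), so levels of different genes can be set side by side. A value above 0 was given for 22358 to 22680 annotated models per library, with a median of 15.3 to 15.6 FPKM among those at 1 FPKM or more. The table holds no read totals, so depth is unknown and no counting interval is given. Leaf markers were high, with 4 of 5 measured and a summed level of 13270 to 14720 FPKM, and RBCS1A, the Rubisco small subunit gene, alone had 6626 to 8586 FPKM. The fifth, LHCB1.3, had no usable estimate. Root markers were present in both lines, with a summed level of 1331 to 1407 FPKM over 5 genes, nearly all from PYK10.

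SIG1 to SIG5, 5 of the 6 sigma factor genes, had lower values in both libraries of Another Col-0 than in both of SALK Col-0, and the polymerase genes differed little. The differences of SIG4 and SIG5 were the largest of the 9. SIG6 overlapped between the lines. With the line as the only term, no member passed the test over the 20569 models whose mean reached 1 FPKM. Nor did any other model (limma, Benjamini-Hochberg adjusted p under 0.05, with 0.0% called higher and 0.0% called lower). At an unadjusted p under 0.05 there were 2097 higher models (10.2%) and 1339 lower ones (6.51%), and of the 9 members 0 were higher and 2 lower, SIG4 and SIG5. Values of the lines did not overlap for 6 members lower in Another Col-0 and 0 higher. Over all models tested, 20.8% were lower without overlap and 26.1% higher. Among the 18370 annotated ones, to which all members and all genes of the lists below belong, the shares were 23.3% and 29.2%. A fit with the replicate number as a further term is described at the end. In whole seedlings, fewer cells that hold a transcript and less of it per cell cannot be told apart.

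**Figure D1:**
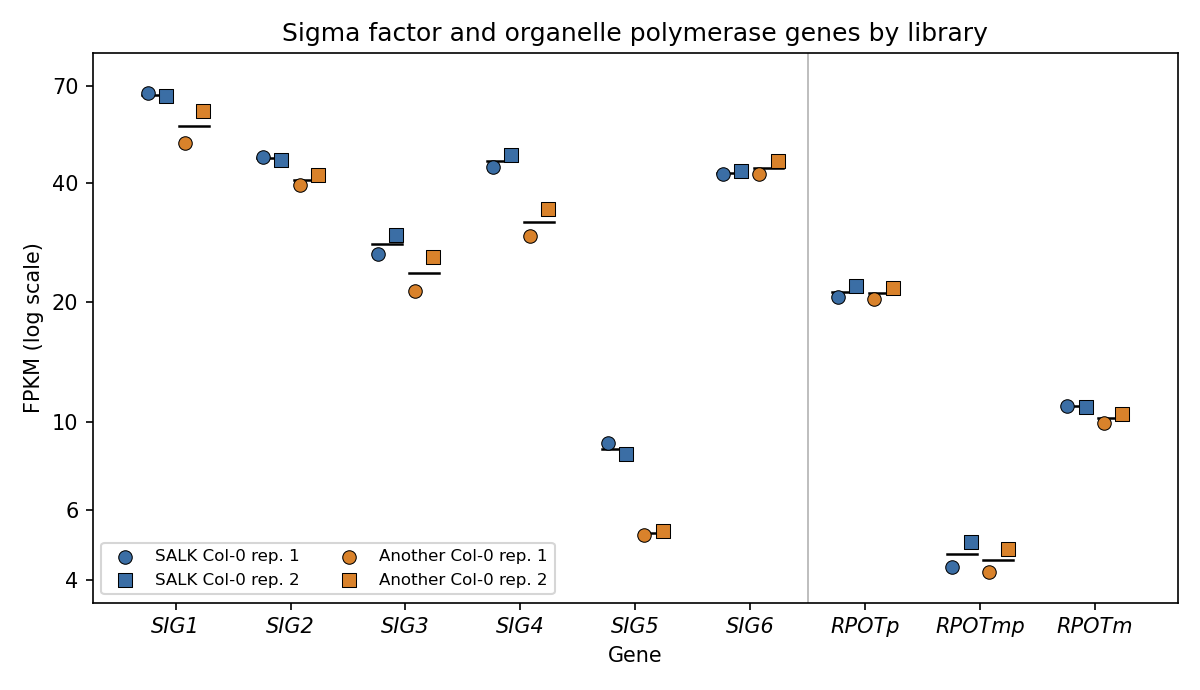
FPKM on a log axis of the 9 genes in each library, with circles for replicate 1, squares for replicate 2, blue for SALK Col-0, orange for Another Col-0 and a bar at each line's mean of 2 libraries. Both orange points lie under both blue points for SIG1 to SIG5 and for RPOTm, by the widest margin for SIG5, which had 8.84 and 8.27 FPKM against 5.18 and 5.32 FPKM.

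Values of some organ markers also differed between the lines. Of 5 flower markers, the floral homeotic genes PI and SEP3 had a summed level of 20.4 and 15.1 FPKM in SALK Col-0, against 45.4 and 38.5 FPKM in Another Col-0. AP1, AG and AP3 stayed at or under 0.346 FPKM in every library. At that low level they too were higher in Another Col-0 without overlap. Of 5 seed markers, the storage protein gene CRA1 had 7.29 and 6.86 against 2.28 and 2.04 FPKM. The other 4 stayed at or under 0.239 FPKM without a common direction. OLEO1 was lower in Another Col-0, CRC and CRB were higher, and SESA4 was listed at 0 throughout. The part of these markers in the sigma factor values was not tested. Root markers had no common direction, with TIP2;3 at 6.27 and 7.14 against 10.7 and 11.3 FPKM and PER64 at 10.8 and 10.9 against 8.12 and 7.88 FPKM. Nor did leaf markers: RBCS1A was higher in Another Col-0 without overlap and PSAD1, a photosystem I gene, lower, at 2730 and 2624 against 2445 and 2383 FPKM. LHCB2.1 and RCA overlapped between the lines, but both were lower within the replicate 1 and 2 pairs. Their log2(FPKM + 1) differences there were -0.37 and -0.34, and -0.06 and -0.08. The models of PSAD1 and LHCB2.1 name 2 and 3 genes.

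SIG5 (AT5G24120) is the sigma factor known for its induction by blue light and stress and for reading the light-responsive promoter of psbD, a photosystem II gene. Its model lies on chromosome 5, 8157551 to 8160229 of the minus strand (TAIR10), and is alone in its bundle, the stretch of genome whose reads were assigned together. Its SALK Col-0 libraries had 8.84 FPKM (replicate 1) and 8.27 FPKM (replicate 2), the order kept for every gene here. In Another Col-0 it had 5.18 and 5.32 FPKM. It was the least abundant sigma factor transcript in all 4 libraries, and its values did not overlap between the lines. The mean was 8.56 ± 0.398 FPKM (SD, n = 2) against 5.25 ± 0.0994 FPKM (SD, n = 2), a level 1.63-fold higher in SALK Col-0. The authors' limits were wide and did overlap, at 3.65 to 13.8 and 3.97 to 12.6 FPKM against 1.825 to 8.41 and 2.01 to 8.57 FPKM. The difference, Another Col-0 minus SALK Col-0 on the log2(FPKM + 1) scale, was -0.61 ± 0.0658 (SE; limma, adjusted p = 0.197, unadjusted p = 0.00259). It was -0.67 within the replicate 1 pair and -0.55 within the replicate 2 pair, and 1.75% of annotated models tested had a lower difference.

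SIG4 (AT5G13730), whose known target in chloroplasts is ndhF, a gene of the NADH dehydrogenase-like complex, had 43.9 and 46.9 FPKM in SALK Col-0. It had 29.4 and 34.3 FPKM in Another Col-0. The lowest SALK Col-0 library was thus above the highest of the other line, and the mean was 1.43-fold higher in SALK Col-0. The log2 difference was -0.50 ± 0.106 (SE; limma, adjusted p = 0.225), with -0.56 and -0.44 in the replicate 1 and 2 pairs, and 3.06% of annotated models had a lower one. The model (chromosome 5, 4429110 to 4430845, minus strand) shares 24 nt with AT5G13720 on the other strand, and the kit, by its standard protocol, does not mark strand. AT5G13720 had 41.8 and 39.4 FPKM in SALK Col-0 against 46.0 and 38.1 FPKM, so its lines overlapped where those of SIG4 did not.

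SIG1 (AT1G64860) had the highest level of the 9 genes in every library. It encodes a sigma factor for photosystem genes whose activity is known to be set by phosphorylation, and its model lies on chromosome 1, 24097913 to 24100952, plus strand. Its level was 67.2 and 66.1 FPKM in SALK Col-0, against 50.6 and 60.7 FPKM in Another Col-0. The lines did not overlap, but the Another Col-0 libraries lay further from each other than the nearer of them lay from SALK Col-0. On the log2 scale the difference was -0.26 ± 0.116 (SE; limma, adjusted p = 0.398), and the pairs of equal replicate number gave -0.40 and -0.12. Without a single library it ranged from -0.39 to -0.13.

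SIG3 (AT3G53920), known for reading psbN, had 26.5 and 29.5 FPKM in SALK Col-0, against 21.4 and 25.9 FPKM in Another Col-0 (chromosome 3, 19960841 to 19963949, minus strand). The highest Another Col-0 library was just under the lowest SALK Col-0 library. With a log2 difference of -0.24 ± 0.133 (SE; limma, adjusted p = 0.493), the pairs gave -0.30 and -0.18, and leaving out single libraries gave -0.37 to -0.10.

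SIG2 (AT1G08540), which is needed for transcription of chloroplast tRNA genes, the glutamate tRNA gene that feeds chlorophyll synthesis among them, had 46.5 and 45.7 FPKM in SALK Col-0. Its level in Another Col-0 was 39.5 and 41.8 FPKM. The groups did not overlap, and the log2 difference was -0.18 ± 0.0582 (SE; limma, adjusted p = 0.309), with -0.23 and -0.13 in the replicate 1 and 2 pairs. Its value is the least certain of the 9 by the authors' own limits, whose lower bound was 0 and whose upper bound was 211 to 218 FPKM in the 4 libraries. Limits of the lines overlapped for every other member too. The model (chromosome 1, 2703336 to 2706845, plus strand) lies in a bundle of 59 models, inside the span of a model of AT1G08510 on the other strand that runs from 2691080 to 2904898. Of the 45 annotated models tested in that bundle, Another Col-0 was higher in 9 and lower in 16 without overlap. Over all annotated models tested the shares were 29.2% and 23.3%. The median log2 difference in the bundle was -0.02.

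SIG6 (AT2G36990), the sigma factor known for broad action in the chloroplasts of young seedlings, had 42.1 and 42.8 FPKM in SALK Col-0, against 42 and 45.3 FPKM in Another Col-0 (chromosome 2, 15537258 to 15540139, minus strand). Its lines overlapped. Their log2 difference was 0.04 ± 0.0646 (SE; limma, adjusted p = 0.88), with -0.0042 and 0.08 in the replicate 1 and 2 pairs, and it turned to -0.02 after quantile normalization.

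As a description, each sigma factor was also read against SIG6 within its own library. The ratio of SIG5 to SIG6 was 0.21 and 0.193 in SALK Col-0, against 0.123 and 0.117 in Another Col-0. For SIG4 to SIG6 it was 1.042 and 1.096 against 0.701 and 0.757, so SIG4 was the more abundant of the pair in SALK Col-0 and the less abundant in Another Col-0. SIG1 to SIG6 gave 1.596 and 1.545 against 1.204 and 1.339. All 5 ratios to SIG6 were lower in both Another Col-0 libraries than in both SALK Col-0 libraries, with SIG2 at 1.104 and 1.068 against 0.94 and 0.922 and SIG3 at 0.629 and 0.689 against 0.509 and 0.573. A ratio shows unequal values and not which gene moved. Since SIG6 differed little between the lines, these ratios largely restate the differences given above and are no separate support for them.

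**Figure D2:**
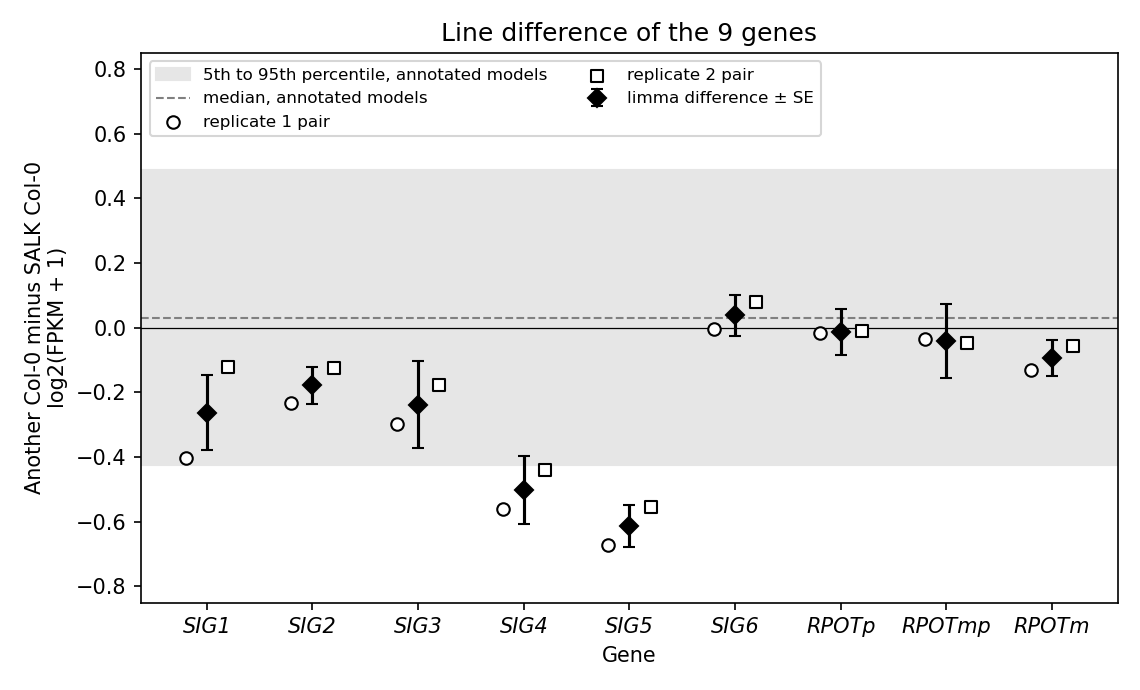
Difference of log2(FPKM + 1) between the lines for each gene, Another Col-0 minus SALK Col-0, as limma's estimate with its standard error (diamonds) and within the replicate 1 and 2 pairs (open circles and squares); the grey band spans the 5th to 95th percentile of 18370 annotated models and the dashed line is their median. SIG4 and SIG5, at -0.50 and -0.61, lie under the band, and SIG6, at 0.04 (-0.02 after quantile normalization), and the 3 polymerase genes lie near 0.

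RPOTp (AT2G24120), also called SCABRA3, transcribes housekeeping genes in plastids. Its level was 20.6 and 21.9 FPKM in SALK Col-0, against 20.3 and 21.8 FPKM in Another Col-0, so the lines overlapped, though they did not after quantile normalization, which gave a log2 difference of -0.04. Without it the difference was -0.01 ± 0.0705 (SE; limma, adjusted p = 1.00). Its model (chromosome 2, 10247801 to 10254641, minus strand) names 2 genes, RPOTp and the neighbouring pseudogene AT2G24110, whose reads are pooled in this value.

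RPOTmp (AT5G15700), the polymerase sent to both organelles, had 4.31 and 4.98 FPKM in SALK Col-0, against 4.18 and 4.79 FPKM in Another Col-0 (chromosome 5, 5115260 to 5121840, minus strand). Replicate 2 was the higher library in both lines, and the lines overlapped, but not after quantile normalization. Between them the log2 difference was -0.04 ± 0.116 (SE; limma, adjusted p = 0.973).

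RPOTm (AT1G68990), the mitochondrial enzyme, which is needed for pollen development, had 10.96 and 10.9 FPKM in SALK Col-0, against 9.93 and 10.5 FPKM in Another Col-0 (chromosome 1, 25934997 to 25940966, minus strand). The lines did not overlap, yet the step between them was small, at 1.07-fold. The log2 difference was -0.09 ± 0.0554 (SE; limma, adjusted p = 0.516), with -0.13 and -0.06 in the replicate 1 and 2 pairs. The model shares 34 nt with AT1G68980 on the other strand, which had 4.50 FPKM in both SALK Col-0 libraries and 5.202 and 5.505 FPKM in Another Col-0.

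The median log2 difference of the 6 sigma factor genes was -0.25, with 5 lower and 0 higher without overlap. For the 3 polymerase genes the median was -0.04, with 1 lower and 0 higher. The median of all models tested was 0.02, with 20.8% lower and 26.1% higher without overlap (23.3% and 29.2% of annotated models). Whether the families differ from each other was not tested.

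Ordered by mean FPKM over the 4 libraries, the genes ran SIG1 (61.1), SIG2 (43.4), SIG6 (43.1), SIG4 (38.6), SIG3 (25.8), RPOTp (21.2), RPOTm (10.6), SIG5 (6.90) and RPOTmp (4.57). The ranges over 4 libraries of SIG2 and SIG6, of SIG6 and SIG4, of SIG4 and SIG3 and of SIG3 and RPOTp overlapped, whereas the other neighbours in that order were separate. SIG4 was nevertheless above SIG3, and SIG3 above RPOTp, in all 4 libraries, while SIG2 was above SIG6 in 2 of 4, both of SALK Col-0. SIG4 was above SIG6 in the same 2. Among annotated models, SIG1 ranked at the 89.2 to 92.3 percentile of level and RPOTmp at the 52.7 to 55.0 percentile.

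Summed over the 6 genes, sigma factor transcripts came to 235 and 239 FPKM in SALK Col-0, against 188 and 213 FPKM in Another Col-0. SIG5 held 3.76% and 3.46% of that sum in SALK Col-0, against 2.75% and 2.49% in Another Col-0. The share of SIG4 was 18.7% and 19.6% against 15.7% and 16.1%, and the share of SIG6 was 17.9% in both SALK Col-0 libraries against 22.3% and 21.2%. The shares of SIG5, SIG4 and SIG6 were thus separate between the lines, while those of SIG1, SIG2 and SIG3 overlapped, in ranges of 26.9% to 28.6%, 19.1% to 21.0% and 11.3% to 12.3%. The FPKM of SIG6 itself overlapped. Its larger share largely restates the lower sum of SIG1 to SIG5, at 192.9 and 196.4 against 146 and 168 FPKM. Summed polymerase transcripts came to 35.8 and 37.8 FPKM against 34.5 and 37.0 FPKM, and overlapped. RPOTp held 57.4% to 59.0% of them and exceeded RPOTmp 4.41-fold to 4.86-fold. The ratio of summed sigma factor to summed polymerase FPKM was 6.56 and 6.32 in SALK Col-0, against 5.46 and 5.76 in Another Col-0.

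**Figure D3:**
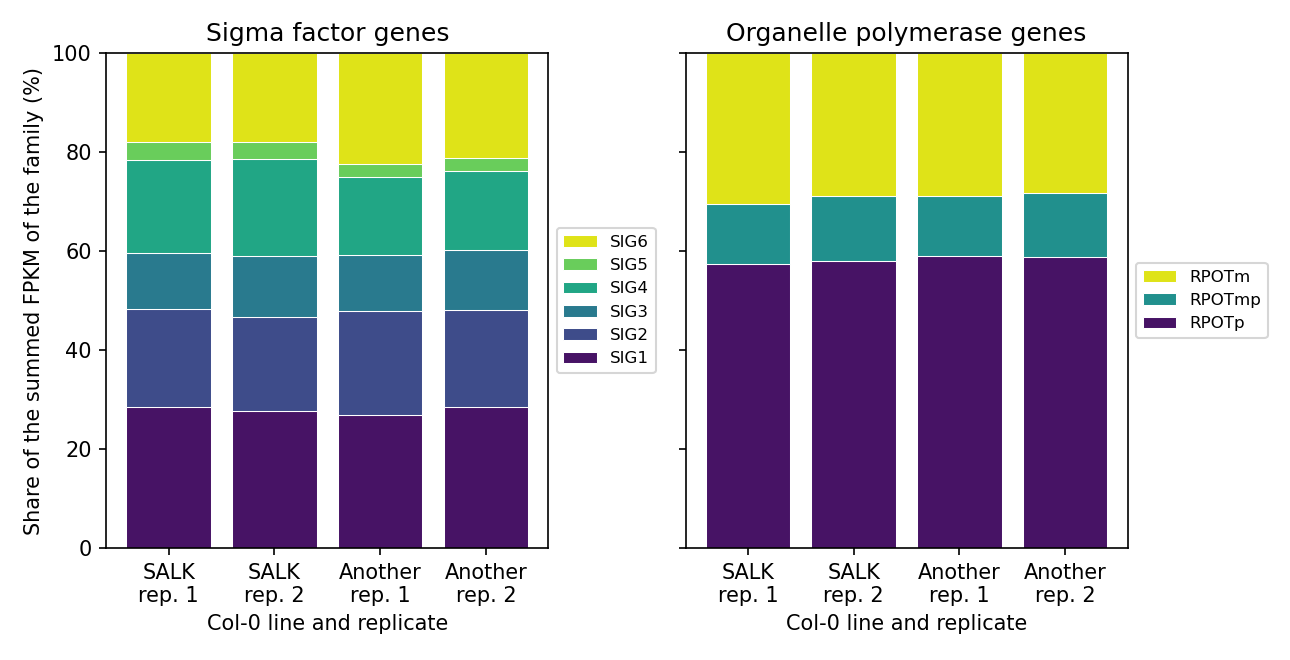
Share of each gene in the summed FPKM of its family, in percent, as stacked bars for each library, with sigma factor genes on the left and polymerase genes on the right. The SIG6 segment is 17.9% in both SALK Col-0 libraries and 22.3% and 21.2% in Another Col-0, while the polymerase bars are alike, with RPOTp between 57.4% and 59.0%. In FPKM, SIG6 overlapped between the lines.

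Members of a family could share reads only where their transcripts are alike over a read of 101 nt. In RefSeq transcripts of the TAIR10.1 assembly (1 for each gene, the one with the longest coding sequence) the sigma factor coding sequences were 58.3% to 65.0% identical over aligned positions in their 15 pairs, and those of the polymerases 67.0% to 68.9% in their 3 pairs. The longest run of identical bases shared by any of the 36 pairs of transcripts, on either strand, was 23 nt, between RPOTmp and RPOTm. It is shown because it is the closest that any pair comes to a common read, and it lies in coding sequence of both, at chr5:5121035-5121057 and chr1:25940307-25940329, both on the minus strand.
RPOTmp and RPOTm: gagactgaagaatgggaaagagc
The longest run outside the polymerase pairs was 20 nt, between SIG1 and SIG4. The sigma factor genes have 4 exons (SIG4) to 10 exons (SIG1) and coding sequences of 1260 to 1719 nt, and the polymerase genes 19 or 20 exons and coding sequences of 2952 to 3156 nt.

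The 250 bases before the RefSeq start of each gene were searched for short words bound by known light and clock regulators: the G-box (CACGTG), the I-box (GATAAG), the word of GOLDEN2-like factors (CCAATC), the core of the evening element (AATATCT) and a core of the CCA1 binding site (AAAATCT), with TATAAA as a further word, on both strands. Windows are shown for the genes with the largest differences (SIG5 and SIG4), for SIG2, which holds a repeated word, and for SIG6, whose lines overlapped. Each reads 5′ to 3′ on the strand of the gene, with capitals at every match, in TAIR10.1 at chr5:8160344-8160593, chr5:4430902-4431151, chr1:2703045-2703294 and chr2:15540140-15540389 in this order.
SIG5: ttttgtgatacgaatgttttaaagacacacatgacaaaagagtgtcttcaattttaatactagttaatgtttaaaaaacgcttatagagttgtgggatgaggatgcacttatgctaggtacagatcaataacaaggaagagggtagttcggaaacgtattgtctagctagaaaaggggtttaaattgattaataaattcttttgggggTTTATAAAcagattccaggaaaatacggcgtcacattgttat
SIG4: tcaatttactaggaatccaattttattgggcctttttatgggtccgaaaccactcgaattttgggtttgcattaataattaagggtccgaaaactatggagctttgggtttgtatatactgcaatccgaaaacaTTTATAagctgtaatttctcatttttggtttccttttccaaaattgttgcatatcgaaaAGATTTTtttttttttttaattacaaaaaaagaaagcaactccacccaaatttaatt
SIG2: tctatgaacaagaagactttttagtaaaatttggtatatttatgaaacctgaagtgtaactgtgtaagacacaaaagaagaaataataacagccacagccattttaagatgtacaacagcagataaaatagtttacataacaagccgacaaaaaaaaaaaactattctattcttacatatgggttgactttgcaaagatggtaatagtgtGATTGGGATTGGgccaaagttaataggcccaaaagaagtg
SIG6: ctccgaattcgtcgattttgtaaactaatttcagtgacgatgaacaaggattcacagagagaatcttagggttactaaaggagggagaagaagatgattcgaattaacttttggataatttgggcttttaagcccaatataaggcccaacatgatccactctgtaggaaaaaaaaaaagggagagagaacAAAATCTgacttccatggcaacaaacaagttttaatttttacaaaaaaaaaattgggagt
SIG5 held no match other than TATAAA, read on both strands in overlapping positions from 42 to 35 bases before the start. SIG2 held GATTGG, the reverse complement of CCAATC, 2 times in a row from 40 to 29 bases before the start, and 10.2% of 27443 windows of protein-coding genes hold that word at least 1 time. SIG4 and SIG6 each held the CCA1 core, from 57 to 51 and from 60 to 54 bases before the start, which 16.5% of windows hold, and SIG4 also TTTATA from 116 to 111 bases, the reverse complement of TATAAA, a word in 47.3% of windows. Among the other members SIG3 held an I-box and an evening element core, RPOTmp an evening element core and RPOTm an I-box, with the I-box in 12.3% of windows and the evening element core in 2745 of the 27443. SIG1, SIG3 and RPOTp also held TATAAA and its reverse complement. No member held a G-box, found in 6.49%. A match describes letters in this window and is not a site shown to be bound.

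Genes for proteins that assemble on the plastid-encoded polymerase lay on the other side from the sigma factors in their median. Of 14 genes for PEP-associated proteins and close partners, Another Col-0 was higher in 7 and lower in 0 without overlap, beside 26.1% and 20.8% of all models tested, and 0 passed the test (limma, adjusted p between 0.197 and 1.00). The median log2 difference was 0.13 (0.10 and 0.12 within the replicate 1 and 2 pairs). Quantile normalization gave 0.05, and leaving out Another Col-0 replicate 2 gave 0.07. FLN2, a fructokinase-like protein of the complex, had 19.9 and 19.5 FPKM in SALK Col-0, against 27.3 and 28.3 FPKM in Another Col-0. Its partner FLN1 (PAP6) had 29.5 and 31.5 against 36.1 and 40.7 FPKM. These 2 and the next 2 are the members with the smallest p. PRIN2, which carries redox signals to the polymerase, had 32.1 and 32.8 against 42.5 and 40.8 FPKM, and FSD3 (PAP4), an iron superoxide dismutase, had 26.3 and 25.9 against 31.2 and 32.2 FPKM. Their log2 differences lay between 0.27 and 0.48.

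Among 10 further proteins of the plastid nucleoid, the complex of plastid DNA with its proteins, 6 were higher and 2 lower without overlap, beside 26.1% and 20.8% of all models, and 0 passed the test (limma, adjusted p between 0.203 and 0.957). The median log2 difference was 0.12, or 0.05 after quantile normalization. The single-stranded DNA-binding proteins WHY1 and WHY3, which protect plastid genome stability, had 14.6 and 13.8 against 19.8 and 18.8 FPKM and 10.95 and 12.1 against 14.3 and 15.2 FPKM. PTAC16, the most abundant of the list, was lower, at 315.8 and 321.7 against 252 and 253 FPKM. PTAC15, an mTERF-family protein, had 4.999 and 4.713 against 6.13 and 5.78 FPKM.

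For known regulators and binding proteins of sigma factors and polymerases, the median lay on the same side as that of the sigma factors. Of 15 genes, 14 had a mean of at least 1 FPKM, and LHY did not. Of the 14, 0 were higher and 6 lower without overlap, beside 26.1% and 20.8% of all models, the median log2 difference was -0.12 (-0.18 after quantile normalization) and 0 passed (limma, adjusted p between 0.245 and 1.00). CSK, a kinase of bacterial type that acts on SIG1, had 25.0 and 25.9 FPKM in SALK Col-0 against 21.3 and 22.0 FPKM. CCA1, a core gene of the circadian clock, under which SIG5 transcripts are known to cycle, had 3.59 and 2.77 against 1.94 and 1.62 FPKM. GLK1, an activator of chloroplast genes, had 34.7 and 47.8 against 22.9 and 30.3 FPKM, and the replicates of each line lay further apart than the nearest libraries of the 2 lines. NIP1, a thylakoid protein that holds RPOTmp, had 16.6 and 19.0 against 13.5 and 14.7 FPKM. HY5, the light-signalling factor, had 7.25 and 7.72 against 6.26 and 7.16 FPKM, and the blue light receptor gene CRY1 had 115.6 and 118 against 102 and 115.1 FPKM, both with no overlap and small steps (named after their values were seen). The rest of the list overlapped between the lines and went both ways (also named after their values were seen). SIB1, HYH, NIP2, SIB2 and cpCK2 had log2 differences of 0.26, 0.20, 0.06, 0.02 and 0.0014. GLK2, CRY2 and GUN1 had -0.45, -0.12 and -0.02. Whether the levels of CCA1 and GLK1 bear on those of the sigma factors was not tested.

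Genes of mTERF proteins, which bind organelle nucleic acids and act in transcription and splicing, were higher in 3 and lower in 2 of 9 without overlap, near the 26.1% and 20.8% of all models. Their median log2 difference was 0.08 and ranged from -0.04 to 0.22 without a single library. MTERF6 had 64.6 and 62.7 against 80.5 and 78.1 FPKM and AT5G07900 9.79 and 10.3 against 12.6 and 12.95 FPKM. SOLDAT10 had 5.71 and 4.41 against 7.99 and 6.14 FPKM, while MDA1 had 12.9 and 10.1 against 10.03 and 8.108 FPKM. Of 10 genes for organelle DNA replication and repair, 1 was higher and 0 lower without overlap, beside the same shares of all models, and the median was 0.08 (-0.03 without Another Col-0 replicate 2). The 1 was WHY2, a mitochondrial relative of WHY1, at 42.1 and 39.1 against 48.4 and 44.7 FPKM. GYRA, GYRB2 and POLIA, the other members named by the smallest p, had log2 differences of 0.18, 0.13 and -0.17, and 0 members of either list passed (limma, adjusted p between 0.21 and 1.00).

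**Figure D4:**
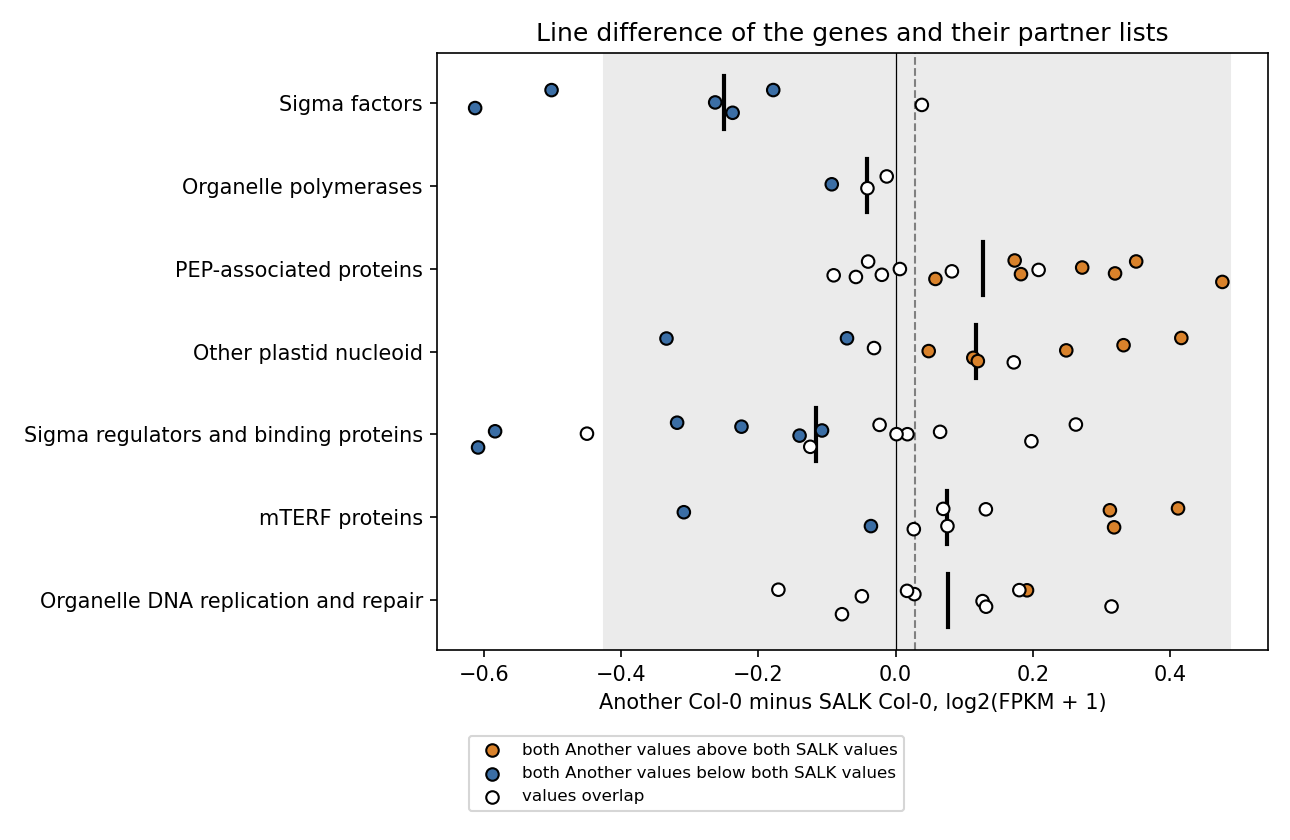
Difference of log2(FPKM + 1), Another Col-0 minus SALK Col-0, of each gene (points, spread at random in height within a list) in the families described and in 5 partner lists, with a bar at each list's median; the grey band spans the 5th to 95th percentile of annotated models and the dashed line is their median. Filled points mark genes whose lines did not overlap, 5 of 6 sigma factors on the lower side (blue) and 7 of 14 PEP-associated proteins on the higher side (orange).

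The annotated models most like SIG5 over the 4 libraries were found among 14477 models whose mean reached 5 FPKM, by the Euclidean distance between log2(FPKM + 1) values centred on each gene's mean. The 5 nearest were AT2G36026 (distance 0.0277), NLM1 (AT4G19030, 0.0314), an aquaporin-family gene, SAUR19 (AT5G18010, 0.0456), of the small auxin-up RNA family, a model that joins FRO4 and FRO5, ferric reductase genes (0.0569), and PHO2 (AT2G33770, 0.0587), a regulator of phosphate balance. Their log2 differences lay between -0.63 and -0.57, beside -0.61 for SIG5. For RPOTm, the polymerase gene with the smallest p, the nearest were BRCC36A (AT1G80210, 0.00833), a model that names KU80 and AT1G48060 (0.0129), AT4G12700 (0.0163), EMB2761 (AT2G04842, 0.0166) and a model that names AT3G22450 and OASA2 (0.0166). The distances rest on 4 libraries and are a description.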

How the data were processed

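RNA of 4 seedling libraries, 2 of each line, was sequenced as single reads of 101 nt from TruSeq RNA V2 libraries on a HiSeq, per the labels' protocols. The authors deposited FPKM values of 36251 merged gene models, with a lower and an upper limit and a status for each value, per the file headers. The submitters' processing notes name TAIR10, Cuffdiff, Cufflinks and TopHat; their versions are not given in the sources used here. FPKM depends on how Cufflinks divides reads among overlapping models, and a model that names several genes pools them. Limits were only quoted.

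In 301 rows, 263 of them with a chloroplast or mitochondrial identifier, the fields are displaced and a further upper limit, status, FPKM and lower limit stand before the named columns. Since those values could not be tied to libraries, these rows were left out, and the lists of chloroplast-encoded polymerase subunits, other chloroplast-encoded and mitochondrion-encoded genes fixed for the comparison were not analysed here. Another 19 models with a failed or too deep estimate were removed, which left 35931.

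Values were taken as log2(FPKM + 1), which makes changes of low genes look smaller. The 20569 models whose mean reached 1 FPKM were fitted with limma 3.58.1 in R 4.3.3, with the line as the term, a mean-variance trend, two-sided tests, Benjamini-Hochberg adjustment over all models and a threshold of 0.05. The model has 2 residual degrees of freedom, and an exact permutation test of 2 against 2 cannot give a p below 0.333. The script was checked on simulated data whose libraries varied independently. That check bears on the estimates, not on how often real differences are called in these data. Differences within a replicate number are plain differences of 1 library of each line. Alternatives were another pseudocount, no or a stricter filter, 2 scalings, no trend, annotated models alone, the replicate block and each library left out. Named genes are all members, up to 4 per list by smallest p, and 5 nearest profiles; genes named after their values were seen are marked. The members and lists were chosen with earlier results of these data known, and lists count as descriptions. Identifiers were looked up in RefSeq (TAIR10.1), which holds 32782 of 33245 identifiers. Of 30137 single-gene models, 99.997% overlapped the RefSeq gene of the same identifier on the same chromosome, and sequences were read from that assembly.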

Additional observations from a re-analysis of the deposited data

How the results depend on the processing

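None of the 9 genes was called without the replicate number as a term (limma), whichever pseudocount, filter, scaling, trend or single library was changed, and the 0 calls over all models also held except when annotated models alone were fitted (10 higher and 1 lower). Under quantile normalization and the other scaling, the differences of SIG1 to SIG5 and of RPOTm kept their sign. The remaining alternatives could not have changed it and are no check of it. Values of the lines did not overlap for these genes, so neither another pseudocount nor leaving out a library could turn the sign. The filters, the trend, annotated models alone and the replicate block leave each estimate as it is. The difference of SIG5 lay between -0.66 and -0.57 without a single library, and that of SIG4 between -0.61 and -0.39. SIG6 turned to -0.0168 after quantile normalization and ranged from -0.0152 to 0.0918 without a single library, RPOTp from -0.0606 to 0.0348 and RPOTmp from -0.1272 to 0.0452. After quantile normalization 8 members were lower without overlap against 6, since RPOTp and RPOTmp joined them, beside 19.1% of all models lower and 18.9% higher. RPOTmp has no value under the filter of at least 5 FPKM, which it did not pass.

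The replicate block mattered most. Deviations of same-numbered libraries from their line means were correlated across models (r = 0.954, and 0.799 among annotated models). With 2 numbers and no label of a shared batch, what same-numbered libraries have in common is not known. With the block, 3029 models were higher (14.7%) and 1740 lower (8.46%), and 2 members were lower, SIG4 (adjusted p = 0.0323) and SIG5 (adjusted p = 0.0321), and 17 of 57 partner genes were called (29.8%, beside 23.2% of all models in either direction). With the replicate block and annotated models only, there were 5012 models higher (27.3%) and 3435 lower (18.7%), 4 lower members (SIG2, SIG3, SIG4 and SIG5, limma adjusted p between 0.00547 and 0.0407) and 25 of 57 partner genes, which is 43.9% beside 46.0% of all models in either direction. The cause of these gains was not tested. List medians kept their sign under every alternative run but those of mTERF proteins (-0.04 without SALK Col-0 replicate 2) and of organelle DNA replication and repair (-0.03 without Another Col-0 replicate 2). What depth limits is unknown.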
